A study of Mus musculus with 8 samples.

Results

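Potassium channel genes were followed in brain RNA of male ICR mice, an outbred strain, after water or rosemary extract (RE) with or without the tail suspension test (TST). The TST hangs a mouse by the tail and scores how long it stays still. The genes are the rows whose array-annotation symbol starts with Kcn, without Kcnj13, and came to 89 of the 19505 genes with a symbol on the array. Each of the 89 had 1 row. There were 4 groups of 2 arrays. Mice of 3 groups went through the TST after water, RE at the low dose or RE at the high dose, and those of the last had water and no TST. All mice were 8 weeks old at purchase, were acclimatized for 1 week and were given water or RE by mouth for 7 days, with 7 mice assigned to each group. The low dose was 10 mg/kg. For the high dose the titles state 100 mg/kg, where the source names have 50 mg/kg. The tissue is called limbic system in some labels, hippocampus in others. The treatment labels use positive control for the water group without TST and negative control for that with it, so grouping went by title. No label states if the pair of RNA samples in a group were single mice or pooled ones, so the p-values speak only of how far these RNA samples spread, which may be technical.

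Potassium channels let potassium leave or enter cells along its gradient and so set the resting potential, end action potentials and limit firing. Voltage-gated channels open on depolarization, calcium- and sodium-activated channels follow ion entry, and inward rectifiers and tandem-pore-domain channels hold the membrane near rest. Accessory subunits change the gating and surface level of the pore-forming subunits. In the brain the genes differ between regions and cell types, from fast-spiking interneurons and cerebellar neurons to glia that clear potassium from the extracellular space.

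The values are log2 signals after normalization across arrays, and each difference is on that scale, with its standard error (SE) from limma fitted to all 8 arrays. The median of all values was 7.47. The 8-array mean lay above it in 54 of the 89 genes and below it in 35, and no detection calls were used. Signals of different genes come from different probes and are not set against each other. The study's own threshold, which asks for a fold over 1.2 (a log2 difference of 0.263) and an unadjusted p below 0.05, is used here with the p of limma in place of an analysis of variance, beside p-values adjusted over all 22206 rows. With 2 arrays against 2, an exact permutation test cannot go below p = 0.333.

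Replicate 2 of water with TST was the least like the others. Its correlation with the other arrays was 0.967 to 0.978 across rows, against 0.983 to 0.993 among the other 7. The mean of the 10 measured cerebellar neuron markers, as a deviation from the 8-array mean, was -1.50 and 5.13 in water with TST, -1.69 and -1.58 in low-dose RE, -1.03 and -1.60 in high-dose RE, and 2.97 and -0.69 in water without TST. Replicate 2 of water with TST and replicate 1 of water without TST were thus high in them. For the 6 measured markers of forebrain excitatory neurons the deviations were 0.69 and -2.43, 0.66 and 0.44, 0.28 and 0.53, and -0.01 and -0.15 in the same order of groups. All 7 hippocampal markers were measured, with signals from 5.22 to 12.92, and 5 of them had a mean above the median of all values. In bulk tissue, fewer cells of a type and less RNA per cell cannot be told apart. The part of these markers in the results below was not tested.

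**Figure D1:**
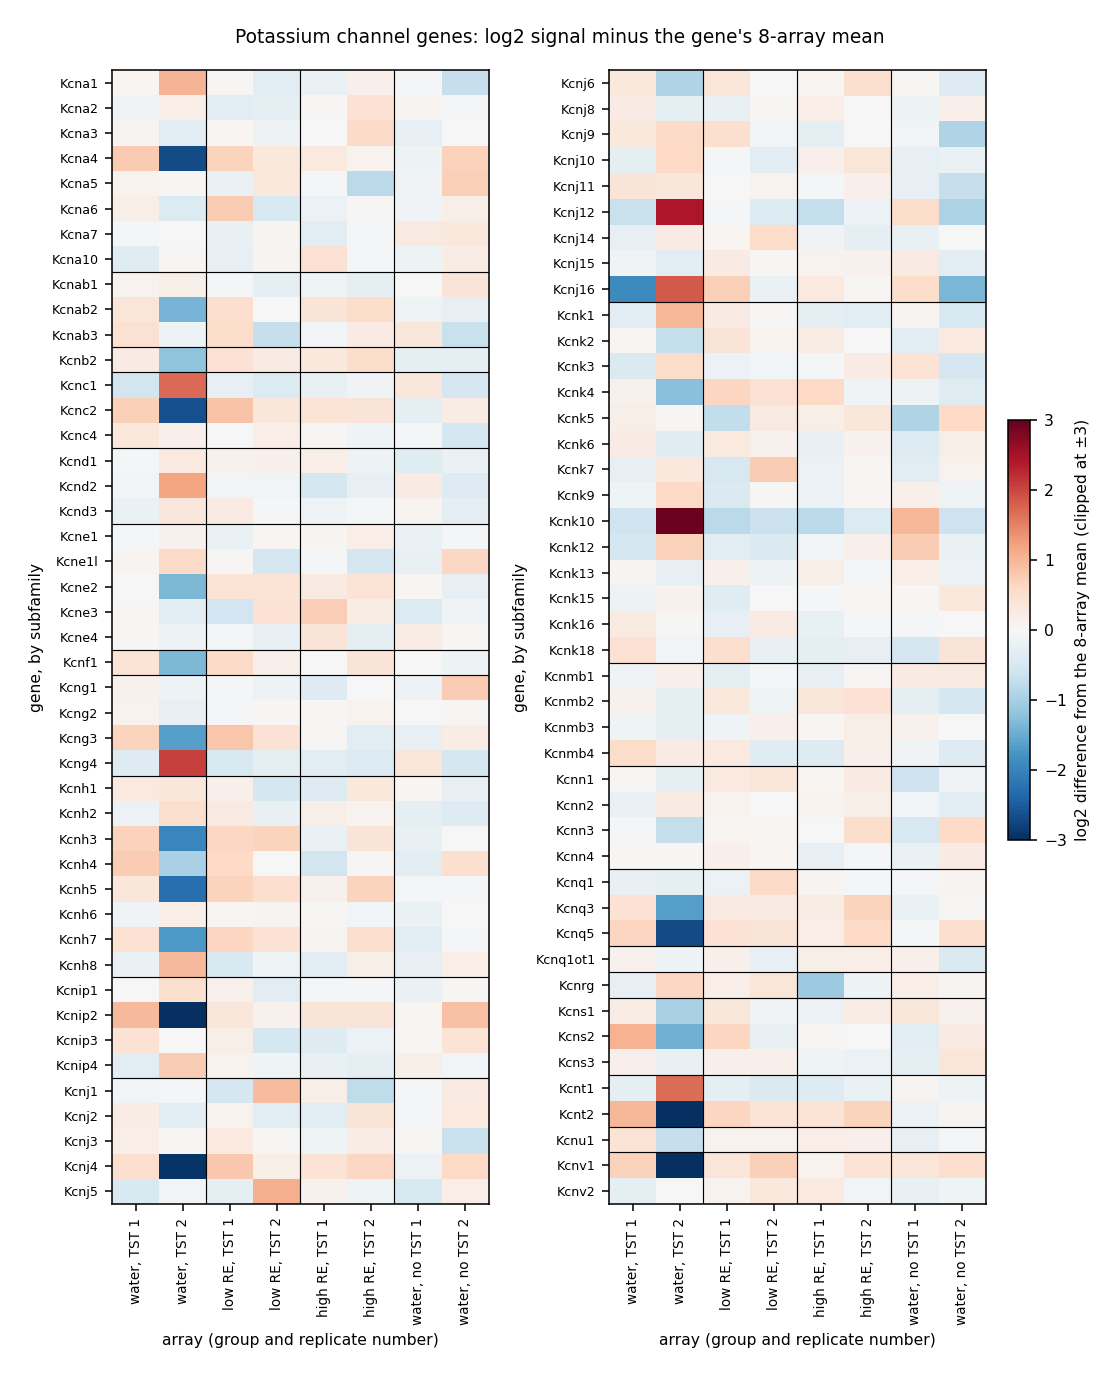
Each row is 1 of the 89 genes, grouped by subfamily, and each column 1 of the 8 arrays; colour gives the log2 signal minus the gene's 8-array mean, clipped at 3 in either direction. On water with TST replicate 2, 6 genes lay more than 1 log2 unit above the next array and 16 lay more than 1 below it. The share of all rows past that cut was not counted. That array was the highest or lowest in 59.6% of the 89 genes, against 43.7% of all rows.

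Water with TST replicate 2 was often at an extreme of the potassium channel genes. It was the highest of the 8 arrays in 23 genes and the lowest in 30, or 59.6% of the 89 genes, against 43.7% of all rows. Of the 33 genes whose pair of arrays in water with TST differed by more than 1 log2 unit, 11 were higher and 22 lower on replicate 2. This was 37.1% of the genes, against 12.7% of all rows. The pair of low-dose RE differed as much in 6 genes (6.74%, against 6.47% of all rows). In high-dose RE it was 0 genes, against 1.62% of all rows, and in water without TST 5 (5.62%, against 3.27%). The range over the 8 arrays exceeded 2 log2 units in 19 genes (21.3%, against 4.35% of all rows), and over the 7 arrays without water with TST replicate 2 in 1 gene, Kcnj16 (1.12%, against 1.12% of all rows). A range over 1 log2 unit was seen in 51 genes on 8 arrays (57.3%, against 37.8% of all rows) and in 23 on those 7 (25.8%, against 24.4%).

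The stretch before the transcript start is shown for a gene from each end of this pattern, because the genes parted there in opposite directions. They are the genes with the widest difference, in each direction, between the arrays of water with TST among the 53 genes with a single start in the RefSeq table (GRCm38.p6). Replicate 2 minus replicate 1 was -4.12 for Kcnip2 and 3.10 for Kcnj12. Each stretch holds the 250 bases before the start on the gene's strand, at chr19:45816064-45816313 (minus strand) for Kcnip2 and chr11:61065554-61065803 (plus strand) for Kcnj12, with GC boxes in capitals.
Kcnip2: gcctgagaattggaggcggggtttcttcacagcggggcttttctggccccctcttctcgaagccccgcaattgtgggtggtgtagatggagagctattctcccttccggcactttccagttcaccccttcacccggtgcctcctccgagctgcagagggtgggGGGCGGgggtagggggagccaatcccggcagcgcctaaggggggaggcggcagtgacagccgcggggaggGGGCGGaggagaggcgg
Kcnj12: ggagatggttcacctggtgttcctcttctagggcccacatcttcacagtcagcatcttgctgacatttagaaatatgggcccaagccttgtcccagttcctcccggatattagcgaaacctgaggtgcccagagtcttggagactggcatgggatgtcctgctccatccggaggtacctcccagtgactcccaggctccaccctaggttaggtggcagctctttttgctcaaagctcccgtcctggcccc
The Kcnip2 stretch was 66.8% G or C with 15 CG pairs and 2 GC boxes, and the Kcnj12 stretch 56.0% with 4 CG pairs and 0 GC boxes. This contrast did not extend to the next widest gene in each direction. The stretch of Kcnt2 (-4.07) was 61.6% G or C with 10 CG pairs and 0 GC boxes. That of Kcng4 (2.45) was 60.4% with 4 CG pairs and 0 GC boxes. A GC box was searched as GGGCGG on both strands and was found in 41 of 93 windows of the 68 potassium channel genes in the table (44.1%), against 32.7% of all 32851 windows. The E-box form CAGATG, searched likewise, was in 16.1% of the genes' windows and 14.4% of all. The full cyclic AMP response element TGACGTCA was in 0 of the 93 windows and in 1.55% of all. These are letter matches only.

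Among the voltage-gated pore-forming genes, the Kcna and Kcnc subfamilies each held at least 1 gene that was highest and 1 that was lowest on water with TST replicate 2. All 3 Kcnd genes were highest there, and Kcnb2, the 1 Kcnb gene measured here, was lowest. Kcna4, which encodes a rapidly inactivating channel, was at 11.18 and 7.71 in water with TST, 11.06 and 10.72 in low-dose RE, 10.69 and 10.51 in high-dose RE, and 10.26 and 11.09 in water without TST. Kcnc2, of the channels that repolarize fast-spiking neurons, was at 12.41 and 9.06, 12.56 and 12.04, 12.11 and 12.10, and 11.43 and 11.94 in the same order of groups. Both genes were low on water with TST replicate 2 alone, and outside it they spanned 0.92 and 1.13 log2 units. Kcnc1, which encodes another channel of fast-spiking neurons that cerebellar granule cells also use, was at 12.91 and 15.16 in water with TST, 13.22 and 13.05 in low-dose RE, 13.25 and 13.36 in high-dose RE, and 13.81 and 12.95 in water without TST. Its highest values were thus on the pair of arrays that were high in cerebellar markers. Kcnd2, the gene of a dendritic A-type channel, had its highest values on the same pair, at 13.02 and 14.29, 13.02 and 13.04, 12.60 and 12.86, and 13.35 and 12.72. Kcnb2, a delayed rectifier gene, was at 8.93 on water with TST replicate 2, against 10.39 on replicate 1 and 9.85 to 10.65 on the other arrays. The axonal channel gene Kcna2 and the A-type channel gene Kcnd3 varied little, from 12.02 to 12.78 and from 9.45 to 10.06 over all 8 arrays.

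The Kcnh and Kcnq genes encode slowly or unusually gated channels, the ether-a-go-go family and the channels of the M-current, which holds back repetitive firing. Kcnq5 was at 13.31 and 9.98 in water with TST, 13.09 and 13.04 in low-dose RE, 12.85 and 13.26 in high-dose RE, and 12.61 and 13.16 in water without TST. Kcnq3, its partner in the M-current, was at 12.48 and 10.39, 12.30 and 12.28, 12.26 and 12.70, and 11.85 and 12.07. In the ether-a-go-go family Kcnh5 was at 12.73 and 10.12, 13.05 and 12.88, 12.51 and 13.04, and 12.35 and 12.35. These 3 genes were lowest on water with TST replicate 2 and spanned 0.70 to 0.85 log2 units over the other 7 arrays. Kcnh3 and Kcnh7 were also lowest there, at 7.01 and 9.86, against 9.67 and 12.03 on replicate 1. Kcnh2, of the erg channels known from cardiac repolarization, was highest there at 10.72, against 10.05 on replicate 1 and 9.86 to 10.51 elsewhere. It was not high on the other array high in cerebellar markers, water without TST replicate 1, at 9.97. Kcnq1ot1, an imprinted noncoding RNA antisense to Kcnq1 and no channel itself, stayed between 9.72 and 10.34 on all arrays.

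The Kcnf, Kcng, Kcns and Kcnv genes encode electrically silent subunits, which form no channel alone and modify delayed rectifiers. Kcnv1 was at 12.52 and 8.69 in water with TST, 12.21 and 12.55 in low-dose RE, 11.94 and 12.24 in high-dose RE, and 12.21 and 12.35 in water without TST. Outside water with TST replicate 2 its values lay within 0.61 log2 units. Kcnf1 (7.46), Kcng3 (5.83) and Kcns2 (6.24) were also lowest on that array, against 9.21, 8.15 and 8.73 on replicate 1 of the group. Kcng4 was instead highest there, at 5.92 and 8.37 in water with TST, 5.85 and 6.01 in low-dose RE, 5.96 and 5.90 in high-dose RE, and 6.67 and 5.80 in water without TST. The 8-array mean of Kcng4 lay below the median of all values.

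Accessory subunits were split as well. Kcnip genes encode calcium-binding proteins that assemble with A-type channels, and Kcnip2 had the widest range of all 89 genes. It was at 13.42 and 9.30 in water with TST, 12.80 and 12.59 in low-dose RE, 12.83 and 12.84 in high-dose RE, and 12.51 and 13.34 in water without TST. Kcnip4 was highest on replicate 2 of water with TST, at 15.74 against 14.67 on replicate 1 and 14.70 to 15.17 elsewhere. Kcnip3, whose protein also acts as a transcriptional repressor, was at 14.17 and 13.74, 13.93 and 13.22, 13.35 and 13.56, and 13.81 and 14.15. The cytoplasmic beta subunit gene Kcnab2 was at 14.82 and 13.06, 14.96 and 14.46, 14.84 and 14.98, and 14.32 and 14.20. Of the Kcnmb genes, which encode beta subunits of the large-conductance calcium-activated channel, Kcnmb1 and Kcnmb3 were among the steadiest genes with a mean above the median, with ranges of 0.56 and 0.45 log2 units. The neuronal subunit gene Kcnmb4 was at 9.54 and 9.23 in water with TST, 9.27 and 8.63 in low-dose RE, 8.59 and 9.14 in high-dose RE, and 8.88 and 8.61 in water without TST.

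The sodium-activated channel genes Kcnt1 and Kcnt2, which are close relatives, parted on the same array. Kcnt1 was at 11.06 and 13.02 in water with TST, 11.06 and 10.92 in low-dose RE, 10.96 and 11.15 in high-dose RE, and 11.42 and 11.20 in water without TST. Kcnt2 was at 12.79 and 8.72, 12.44 and 12.21, 12.21 and 12.46, and 11.61 and 11.87. On water with TST replicate 2, Kcnt1 was thus the highest and Kcnt2 the lowest of their 8 values. The small-conductance calcium-activated channel gene Kcnn2, which shapes the afterhyperpolarization, varied by only 0.55 log2 units over the 8 arrays, and Kcnn3 by 1.31. Kcnu1, known from sperm, was near the median of all values, at 7.24 to 8.34.

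Inward rectifiers (Kcnj) include strong rectifiers, G-protein-gated channels, ATP-sensitive channels and the glial channels. The strong rectifier genes Kcnj4 and Kcnj12 parted as Kcnt1 and Kcnt2 did. Kcnj4 was at 8.15 and 4.71 in water with TST, 8.45 and 7.82 in low-dose RE, 8.06 and 8.28 in high-dose RE, and 7.48 and 8.24 in water without TST. Kcnj12 was at 8.25 and 11.35, 8.87 and 8.51, 8.20 and 8.74, and 9.48 and 7.96. Kcnj12 was highest on the 2 arrays high in cerebellar markers, and Kcnj4 was lowest on 1 of them. The glial gene Kcnj16 was at 4.56 and 8.31 in water with TST, 7.19 and 6.28 in low-dose RE, 6.77 and 6.51 in high-dose RE, and 7.03 and 5.11 in water without TST. Both water groups spread more than the RE groups, and Kcnj16 kept a range of 2.63 without water with TST replicate 2. The 8-array mean of Kcnj16 lay below the median of all values. Its partner Kcnj10, the main potassium-buffering channel of astrocytes, was at 13.49 and 14.39, 13.75 and 13.47, 13.94 and 14.16, and 13.55 and 13.60. The mean deviation of 7 astrocyte markers was 0.399 on water with TST replicate 2 and between -0.283 and 0.172 on the other arrays. This list was split on that array. Aqp4, S100b, Slc1a3 and Gja1 were highest there, Slc1a2 and Aldh1l1 were lowest, and Gfap was neither. Of the G-protein-gated channel genes, Kcnj3 ranged from 12.72 to 13.68 and Kcnj6 from 9.39 to 10.77. Kcnj8, the ATP-sensitive channel gene of mural cells, ranged from 6.29 to 6.81.

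Tandem-pore-domain (Kcnk) genes encode background channels. Kcnk10, of the mechanosensitive and lipid-sensitive channels, was at 9.57 and 13.11 in water with TST, 9.35 and 9.52 in low-dose RE, 9.36 and 9.75 in high-dose RE, and 11.16 and 9.54 in water without TST. Its 2 highest values were on the arrays highest in cerebellar markers. Of the same kind of channel, Kcnk2 was at 10.24 and 9.46, 10.56 and 10.28, 10.40 and 10.20, and 9.86 and 10.48, and was lowest on water with TST replicate 2. Kcnk1 was highest on that array at 13.51, against 12.20 on replicate 1 and 12.06 to 12.75 on the rest. On water without TST replicate 1 it was at 12.58, below 12.75 on low-dose RE replicate 1. The acid-sensitive channel gene Kcnk9 was also highest on water with TST replicate 2 at 11.74, with 10.72 to 11.31 elsewhere. Kcnk13, a microglial channel gene, varied by 0.44 log2 units over the 8 arrays.

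**Figure D2:**
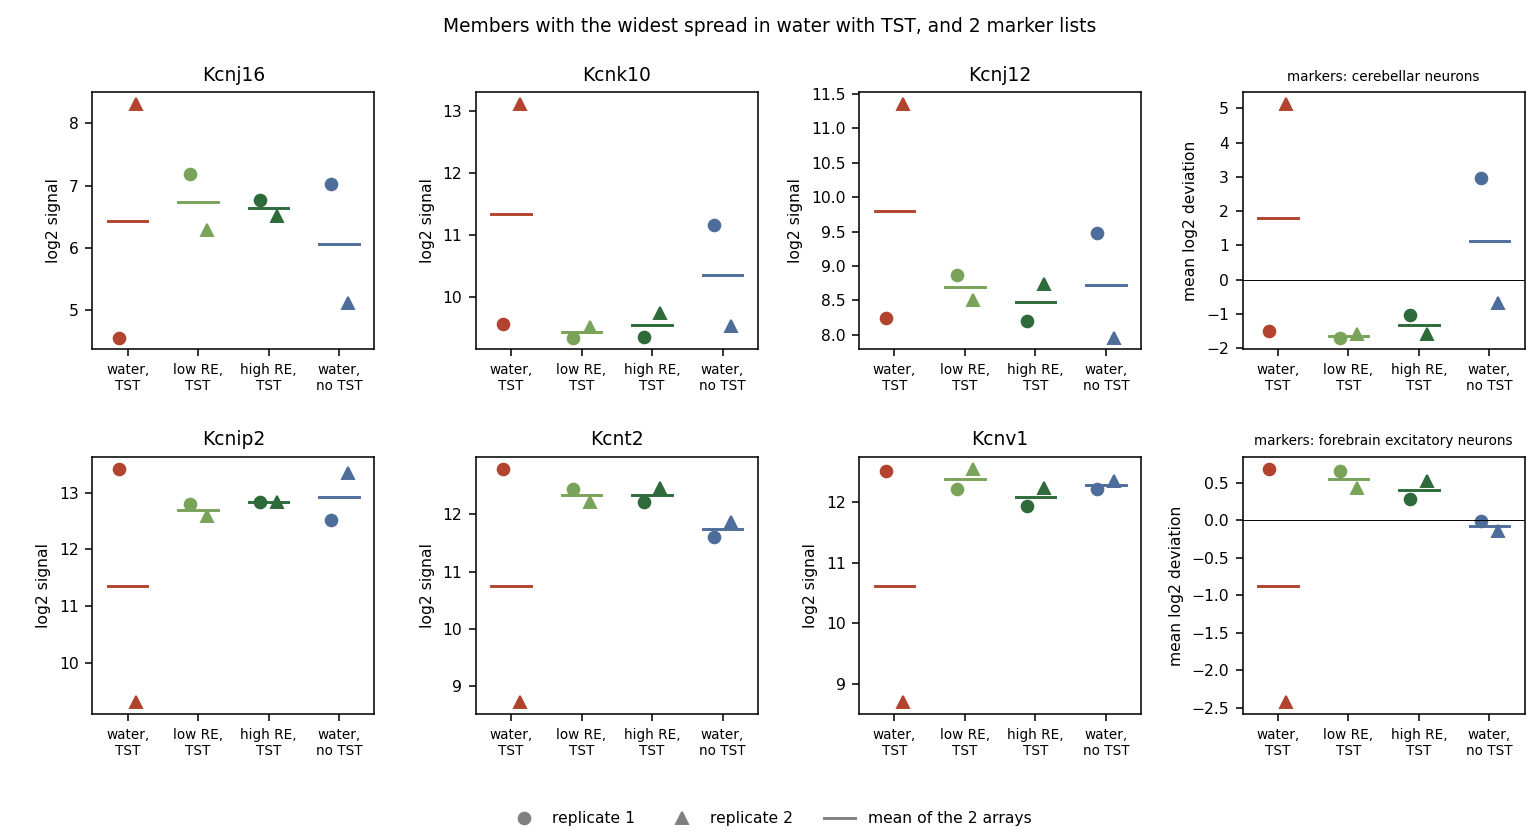
Points are arrays (circle, replicate 1; triangle, replicate 2), bars the means of 2 arrays, and the vertical axis the log2 signal of 6 genes or, at the right, the mean log2 deviation of 2 marker lists from their 8-array mean. On water with TST replicate 2, Kcnj16, Kcnk10 and Kcnj12 were at 8.31, 13.11 and 11.35 beside a cerebellar marker deviation of 5.13, while Kcnip2, Kcnt2 and Kcnv1 were at 9.30, 8.72 and 8.69 beside a forebrain marker deviation of -2.43. Kcnj16 did not keep the order of the cerebellar markers elsewhere. It was at 7.19 on low-dose RE replicate 1 (deviation -1.69) and 7.03 on water without TST replicate 1 (deviation 2.97).

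The TST comparison set water with TST against water without TST. In all, 3 genes were higher and past the study's threshold: the G-protein-gated channel gene Kcnj9, the axonal channel gene Kcna1 and the ATP-sensitive channel gene Kcnj11. Kcnj9 was at 9.77 and 10.04 with TST, against 9.37 and 8.55 without it (difference 0.945, SE 0.334). Kcna1 was at 12.61 and 13.57 with TST, against 12.52 and 11.85 without it (0.905, SE 0.378). Kcnj11 was at 8.21 and 8.18 with TST, against 7.58 and 7.15 without it (0.83, SE 0.241). In each of the 3 genes both arrays with TST lay above both without it, which held in this direction for 11 of the 89 genes, against 14.2% of all rows, while 4 of the 89 were lower without overlap, against 13.3%. The called share was 3 of 89 genes higher (3.37%) and 0 lower, against 1.29% and 1.26% of all rows. After adjustment over all rows 0 genes passed in limma (adjusted p = 0.997 for Kcnj11), as did 0 of all rows. The median difference of the 89 genes was -0.015, with 43 above 0, and that of all rows 0.005.

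Other members with groups that did not overlap in this comparison were not past the threshold. They included the large-conductance channel subunit genes Kcnmb2 at 0.345 (SE 0.261) and Kcnmb4 at 0.64 (SE 0.311), Kcnc4, of the fast-spiking channel subfamily, at 0.53 (SE 0.247), Kcnh2 at 0.47 (SE 0.293) and the ether-a-go-go gene Kcnh1 at 0.415 (SE 0.326). Downward, Kcnmb3 was at -0.28 (SE 0.225). Larger mean differences came with overlapping groups, among them Kcnv1 at -1.675 (SE 0.970) and Kcnj12 at 1.08 (SE 0.887). Without water with TST replicate 2, Kcnj11 was at 0.845 and past the threshold, and Kcnj9 at 0.81 and Kcna1 at 0.425 were not. Kcns2 (1.10), Kcnt2 (1.05) and Kcnh3 (0.81) passed it there, 4 of 89 genes in all, against 3.29% of all rows, and had been at -0.145, -0.985 and -0.52 with all arrays. Without water without TST replicate 2 the 3 genes were at 0.615, 0.535 and 0.57 for Kcnj11, Kcnj9 and Kcna1, and 0 of the 89 passed, against 2.19% of all rows. That array was high in 7 striatal markers, whose mean deviations were 0.178 and -1.155 with TST, against 0.064 and 1.888 without it. The mean of 7 hypothalamic markers was also highest on that array, at -0.269 and 0.107 with TST, against -0.702 and 1.312 without it. Of these 7, 1 had an 8-array mean above the median of all values. Pomc (6.65, against 8.05 on water with TST replicate 2) and Hcrt were higher on another array. The part of these markers in the 3 calls was not tested. Without water with TST replicate 1, which leaves replicate 2 alone in its group, 35 of 89 genes (39.3%) passed the threshold, against 16.7% of all rows.

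**Figure D3:**
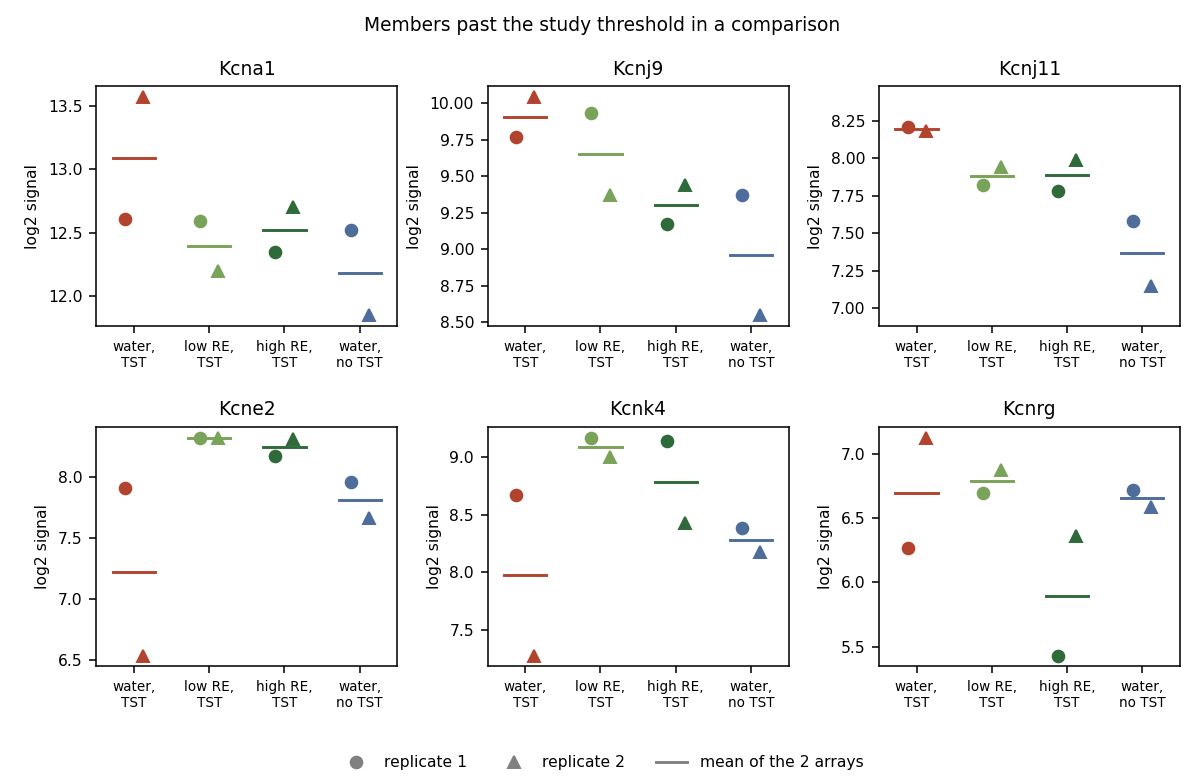
Log2 signal on each array (circle, replicate 1; triangle, replicate 2; bar, mean of 2 arrays) for the 6 genes past the study's threshold in at least 1 comparison. Kcnj11 lay at 8.21 and 8.18 in water with TST, above 7.58 and 7.15 in water without TST, while Kcne2 and Kcnk4 had their lowest values, 6.54 and 7.28, on water with TST replicate 2.

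Low-dose RE was set against water, both with TST. Kcne2 and Kcnk4 were higher and past the study's threshold. Kcne2, an accessory subunit gene known from the choroid plexus epithelium, was at 8.32 and 8.32 in low-dose RE, against 7.91 and 6.54 in water (1.095, SE 0.404). Kcnk4, a mechanosensitive background channel gene, was at 9.17 and 9.0 in low-dose RE, against 8.67 and 7.28 in water (1.11, SE 0.441). In both genes the arrays of the groups did not overlap, and the water array farther away was replicate 2. Called were 2 of 89 genes higher (2.25%) and 0 lower, against 1.94% and 1.61% of all rows. After adjustment 0 genes passed in limma (adjusted p = 0.946 for Kcne2), as did 0 of all rows. Without water with TST replicate 2, Kcne2 was at 0.41 and Kcnk4 at 0.415, neither past the threshold. The mean deviation of 6 choroid plexus markers was 0.029 and 0.835 in low-dose RE, against 0.392 and -1.445 in water with TST. Of the 6, Ttr, Kl, Clic6 and Folr1 were lowest on water with TST replicate 2, and Sostdc1 and Otx2 were not. Without that array their low-dose differences ran from -0.51 for Folr1 to 0.73 for Otx2. The mean deviation of 8 thalamic markers was 0.816 and 0.354 in low-dose RE, against -0.101 and -1.084 in water with TST. Of these, Tcf7l2 was at 1.76 (SE 0.431) with the low dose, and at 1.01 without water with TST replicate 2. Without that array the 8 markers ran from 0.305 for Calb2 up to this value. With all arrays Calb2 alone went the other way, at -1.145 (SE 0.757). The part of these markers in the calls was not tested.

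The groups did not overlap in 11 genes with the higher values in low-dose RE and in 7 with the lower ones, against 13.1% and 11.9% of all rows. Of these, Kcnh5 at 1.54 (SE 0.687), Kcnk2 at 0.57 (SE 0.332) and the small-conductance channel gene Kcnn1 at 0.445 (SE 0.261) were not past the threshold upward. Downward, Kcnk10 was at -1.905 (SE 0.984), Kcna1 at -0.695 (SE 0.378) and Kcnh1 at -0.50 (SE 0.326). A difference of more than 1 log2 unit was seen in 17 genes in this comparison (19.1%, against 2.57% of all rows). Without water with TST replicate 2 it was seen in 1 gene, Kcnj16 (1.12%, against 1.32% of all rows). There Kcnj16 was at 2.175 and the 1 gene past the threshold, against 3.49% of all rows, where it was at 0.30 (SE 1.08) with all arrays. The median difference over the 89 genes was 0.055, against 0.015 over all rows, and -0.035 against 0.02 without that array. Without replicate 1 of water with TST in its place, 36 of 89 genes (40.4%) passed, against 17% of all rows.

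High-dose RE was set against the same water group, so the comparisons of both doses share their controls. Kcne2 was at 8.17 and 8.31 in high-dose RE, against 7.91 and 6.54 in water with TST (1.015, SE 0.404), and was the only one of the 89 genes past the study's threshold. That is 1.12% of the genes in the higher direction, against 1.67% of all rows, and 0 genes in the lower direction, against 1.51%. After adjustment 0 genes passed in limma (adjusted p = 0.973 for Kcne2), as did 0 of all rows. Among genes whose higher group mean lay above the median of all values, the next largest differences without overlap were Kcnab2 at 0.97 (SE 0.497), Kcnb2 at 0.885 (SE 0.420) and Kcnn3 at 0.64 (SE 0.396), and downward Kcnd2 at -0.925 (SE 0.411), Kcnj9 at -0.60 (SE 0.334), Kcnmb4 at -0.52 (SE 0.311) and Kcnip3 at -0.50 (SE 0.308). None of these 7 was past the threshold. In all, 11 genes were higher and 13 lower in high-dose RE without overlap, against 15.3% and 15.2% of all rows.

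Without water with TST replicate 2, Kcne2 was at 0.33 and not past the threshold in the high-dose comparison. Kcnj16 (2.08), Kcns2 (-1.025), Kcnh4, of the ether-a-go-go family (-1.025), and Kcng3 (-0.81) passed it there, 4 of 89 genes (4.49%), against 3.09% of all rows. With all arrays these 4 were at 0.205, 0.22, -0.155 and 0.35. Water with TST then rests on a single array, whose spread is taken from the remaining groups. Without replicate 1 in its place, 34 of 89 genes (38.2%) passed, against 17% of all rows. The lone array, replicate 1, held the lowest Kcnj16 value (4.56) and the highest Kcns2 value (8.73) of the 8 arrays. Kcnj16 and Kcnh4 had 8-array means below the median of all values.

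**Figure D4:**
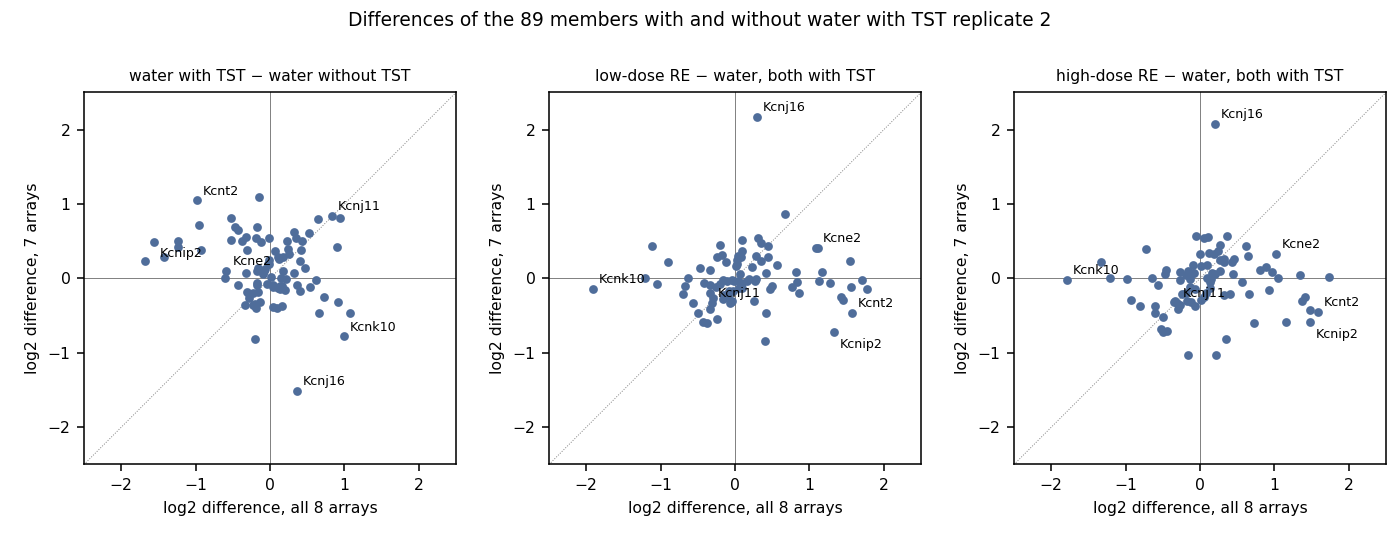
Each point is 1 of the 89 genes; the horizontal axis gives the log2 difference with all 8 arrays and the vertical axis that without water with TST replicate 2, for 3 comparisons, with a dotted line of equality. In the low-dose comparison Kcnk10 was at -1.905 with all arrays and Kcnj16 at 2.175 without the array. There 17 genes exceeded 1 log2 unit with all arrays (19.1%, against 2.57% of all rows) and 1 without it (1.12%, against 1.32%).

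The dose comparison, high against low, takes its means from RE arrays alone, with the spread estimated over all 8 arrays. Differences among the 89 genes lay between -0.895 and 0.545, and 0 exceeded 1 log2 unit, against 0.338% of all rows. Kcnrg, whose protein resembles the assembly domain of voltage-gated channels, was at 5.43 and 6.36 in high-dose RE, against 6.70 and 6.88 in low-dose RE (-0.895, SE 0.378) and was past the study's threshold. Its 8-array mean lay below the median of all values. Called were 0 genes higher and 1 lower (1.12%), against 0.946% and 0.968% of all rows. After adjustment 0 genes passed in limma (adjusted p = 1 for Kcnrg), as did 0 of all rows. Without high-dose replicate 1, Kcnrg was at -0.43 and not past the threshold, where 1 of 89 genes passed, against 1.11% of all rows.

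Groups did not overlap in 11 genes higher and 15 lower with the high dose, against 12.9% and 13.7% of all rows. Kcna2 was at 12.37 and 12.78 in high-dose RE, against 12.02 and 12.07 in low-dose RE (0.53, SE 0.245), without passing the threshold. Kcnj10 was at 13.94 and 14.16, against 13.75 and 13.47 (0.44, SE 0.316). Downward, Kcng3 was at -0.775 (SE 0.631), Kcnh3 at -0.55 (SE 0.703), the strong rectifier gene Kcnj14 at -0.50 (SE 0.277) and Kcnk1 at -0.44 (SE 0.407). Kcnd2 and Kcns3, a silent subunit gene, were both at -0.30 (SE 0.411 and 0.281). The median difference of the 89 genes was -0.04, against -0.005 for all rows.

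A moderated F-test over the 4 groups gave an unadjusted p under 0.05 in 1 of the 89 genes, Kcnj11 (1.12%, against 1.82% of all rows), and 0 after adjustment, as in all rows.

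Genes that work with potassium channels under other names were read from a list of 34, of which 29 were measured. These are auxiliary subunits and anchors such as Dpp6 and Lgi1, regulators of G-protein-gated channels, the related cation channels of the Hcn family, and potassium pumps and cotransporters. With TST 0 of the 29 passed the study's threshold in either direction, against 1.29% of all rows higher and 1.26% lower. In each comparison of RE with water 0 were higher, against 1.94% of all rows with the low dose and 1.67% with the high dose. In each of them 1 was lower, Atp1b3, a beta subunit gene of the sodium-potassium pump. Of all rows, 1.61% were lower with the low dose and 1.51% with the high dose. Atp1b3 was at 13.85 and 13.38 in low-dose RE and 13.67 and 13.76 in high-dose RE, against 14.06 and 14.72 in water with TST (-0.775 and -0.675, SE 0.290 each). Its adjusted p in limma was 0.946 with the low dose and 0.973 with the high dose. Without water with TST replicate 2 the differences were -0.445 and -0.345, neither past the threshold. In the dose comparison 0 passed, against 0.946% of all rows higher and 0.968% lower. The median differences of the 29 genes were 0.03 with TST, -0.075 with the low dose, -0.08 with the high dose and 0.04 between doses.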

How the data were processed

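Gene expression was measured on 8 Clariom S arrays. Per the series' design text, the authors summarized the scans by RMA (robust multichip averaging), with Transcriptome Analysis Console software, into log2 values; no source used here gives a genome build. Of the deposited log2 values, which run from 2.76 to 19.79, 1359 lie over 16, more than 16-bit scans allow, so their scale may be stretched; 0 of these belong to a potassium channel gene. Precision is limited by the number of arrays. Of 22206 rows, 19572 had 1 gene symbol in the platform annotation and 2634 are unnamed here; all 89 members matched the RefSeq gene table. Group means were fitted to every row with limma 3.58.1 (lmFit, eBayes) in R 4.3.3; tests are 2-sided and Benjamini-Hochberg adjusted. The code was tested on simulated data. Members and lists were chosen with earlier results of these data known. Named genes followed a written rule: the widest range in each subfamily; every gene past the study's threshold and the 8 largest differences without overlap among brighter genes, per comparison; the 10 widest and 5 narrowest ranges; and a list of well-known genes, of which 22 of 26 were measured here. Kcnh4, Kcnh7 and the markers Tcf7l2 and Calb2 were chosen after their values were seen. Same-numbered arrays did not deviate together (correlations of -0.293 to 0.169), so replicate numbers were not used as pairs. Alternatives changed the fit, normalization, filter, test and arrays used.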

Additional observations from a re-analysis of the deposited data

How the results depend on the processing

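Counts of potassium channel genes past the study's threshold are given in the order TST, low dose, high dose and dose comparison, and were 3, 2, 1 and 1 with all 8 arrays. The shares of all rows, in either direction, were 2.55%, 3.54%, 3.17% and 1.91%. No such share is given for the alternatives below, except without both arrays high in cerebellar markers. Counts given without it cannot be read against all rows. The counts were 2, 0, 0 and 2 with only the compared groups in the fit, 3, 2, 2 and 2 with a trended and robust prior, and 4, 3, 2 and 1 after quantile normalization. They were 2, 1, 1 and 1 by an unmoderated one-way analysis of variance, the kind of test the design text names, run here on the compared groups only. None of the 7 calls described above passed by that analysis of variance, so the genes it called were others. The dimmest 25% of rows left out, 73 of the 89 genes remained and the counts were 3, 2, 1 and 1. The replicate block gave 2, 3, 3 and 1, and Kcna1 was no longer past the threshold; with crossed numbers in the block 3 genes passed in the TST comparison. The F-test gave 1 gene with all arrays and 0 with the replicate block or the trended prior. Without both arrays high in cerebellar markers the counts were 5, 2, 4 and 2, against 2.72%, 3.04%, 2.81% and 2.39% of all rows, and the median differences 0.09, -0.035, -0.01 and -0.04, against -0.01, 0.02, 0.015 and -0.005 over all rows. Leaving out 1 array at a time gave 0 to 35, 1 to 36, 0 to 34 and 0 to 3 genes, 0 to 34 by the F-test, and medians of -0.12 to 0.10, -0.035 to 0.07, -0.01 to 0.105 and -0.09 to 0.05. Each of the 7 calls was lost without at least 1 of the 8 arrays: Kcnj11 without 1, Kcnj9 without 2, Kcna1 without 6, Kcne2 without 3 with the low dose and 5 with the high dose, Kcnk4 without 5 and Kcnrg without 5. Leaving out an array of a group outside the comparison changes only the estimate of the spread. Without water with TST replicate 1, that group rests on replicate 2 alone. Differences of more than 1 log2 unit were then seen in 32.6%, 34.8% and 36% of the genes in the first 3 comparisons. Of all rows it was 9.02%, 9.94% and 9.8%. The 33 named differences all came from groups that did not overlap, so leaving out an array could not reverse them. Other differences did reverse. In the TST comparison Kcnt2, Kcns2 and Kcnh3 were at 1.05, 1.10 and 0.81 without water with TST replicate 2. They were at -3.02, -1.39 and -1.85 without replicate 1. Each gene had 1 row, so averaging rows was not run.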
